A study of Caenorhabditis elegans with 3 samples.

Results

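The regions described here are places on the nuclear chromosomes of Caenorhabditis elegans where GFP-tagged MEP-1 was mapped at the start of a transfer RNA (tRNA) gene. They are the rows of the authors' reproducible list, made with the irreproducible discovery rate (IDR) procedure, whose point source, the base of strongest signal, fell between -500 and 100 bp of an annotated tRNA gene start. The rule took 217 of 5209 nuclear regions, or 4.17%, and these lay at 241 of 612 nuclear tRNA genes. A gene with such a point source is called bound below. The study is ChIP-seq of whole L4 larvae of mixed sex, strain OP102, genotype unc-119(tm4063) III; wgIs102, where wgIs102 is the transgene that carries tagged MEP-1. There was 1 group of 3 biological replicates, all with the same mutation and transgene, and no untagged or untreated group was analysed here. Replicates 1 and 2 came from a strain collection and have a stated size range of 150 to 350 bp, while replicate 3 came from the laboratory's own stock with no size range given. In whole larvae the cell types in which a gene was bound cannot be told apart, and the labels name neither the promoter of the transgene nor a mutation of the animals' own mep-1.

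tRNA genes are short and are transcribed by RNA polymerase III. Their promoter lies inside the transcribed sequence, in the A box and the B box, which the factor TFIIIC recognises, and TFIIIB then settles just upstream of the start. Transcription ends at a run of T on the coding strand. In C. elegans many tRNA genes lie on the X chromosome, in introns of other genes, or in small groups of near-identical copies. MEP-1 has zinc fingers and is known to act with LET-418, a Mi-2 type remodeller of nucleosomes, and with the histone deacetylase HDA-1.

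Of the gene sequences printed next, the first 3 lay under the highest-scoring regions and the fourth under the highest-scoring region away from X. The fifth is a copy of the first with no point source in its window in any of the lists used. Each runs 5′ to 3′ on the gene strand from 40 bases before the gene to 20 bases after it (assembly WBcel235, the same as ce11). Capitals mark the A box and the B box core, the latter found as GTTCGANNC or GTTCAANNC.
C28G1.t1, tRNA-Glu, X:8836073-8836204, plus strand: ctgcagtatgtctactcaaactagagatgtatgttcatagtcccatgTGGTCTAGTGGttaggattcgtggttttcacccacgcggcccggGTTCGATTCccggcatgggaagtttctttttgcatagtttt
R04A9.t1, tRNA-Gln, X:410351-410482, plus strand: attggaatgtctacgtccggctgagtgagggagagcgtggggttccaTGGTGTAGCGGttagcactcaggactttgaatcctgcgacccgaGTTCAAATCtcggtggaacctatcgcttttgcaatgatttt
M02F4.t1, tRNA-Gly, X:3036124-3036255, plus strand: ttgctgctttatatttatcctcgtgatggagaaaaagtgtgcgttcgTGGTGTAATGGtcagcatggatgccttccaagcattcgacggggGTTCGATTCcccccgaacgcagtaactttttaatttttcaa
B0350.t1, tRNA-Lys, IV:5967120-5967252, plus strand: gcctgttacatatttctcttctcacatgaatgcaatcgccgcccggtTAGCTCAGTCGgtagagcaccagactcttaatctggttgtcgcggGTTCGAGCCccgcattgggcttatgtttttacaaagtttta
F31B12.t1, tRNA-Glu, X:10821307-10821438, minus strand: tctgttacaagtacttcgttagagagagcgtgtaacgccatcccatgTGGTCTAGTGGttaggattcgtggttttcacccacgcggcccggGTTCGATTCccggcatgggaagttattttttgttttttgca
The gene bodies of C28G1.t1 and F31B12.t1 are identical over 72 bases. In the 40 bases before the gene, 8 bases were identical between them. In the IDR list the point source at C28G1.t1 lay 88 bp upstream of the gene, before the printed bases. In replicate 2 it lay at -31 bp, within them. Of the 15 nuclear tRNA genes with that sequence, 8 were bound.

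MEP-1 regions were found at tRNA genes far more often than at genes in general. In the IDR list 39.4% of the tRNA genes were bound, against 7.69% of all nuclear genes. The replicates were compared through their top regions, meaning the 5167 highest-scoring distinct regions of each, as many as the IDR list has distinct intervals. Among those, replicate 1 had 225 bound tRNA genes (36.8%), replicate 2 had 232 (37.9%) and replicate 3 had 252 (41.2%). The mean was 38.6% ± 2.29 (SD, n = 3), with 7.63%, 7.51% and 7.72% of all nuclear genes bound in the same lists. The difference between tRNA genes and all other genes was 32.1 percentage points in the IDR list and 31.4 ± 2.25 points over the replicates, higher at tRNA genes in 3 of 3. A two-sided exact sign-flip permutation test over 3 replicates cannot go below p = 0.25, which is the value found here (0.386 adjusted over the 17 differences tested). Among tRNA genes whose sequence occurs once, the difference in the IDR list was 16.5 points. The control experiment was not analysed here.

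tRNA pseudogenes gave a contrast within the same family of sequences. They are annotated remnants of tRNA genes, and 3 of 209 (1.44%) were bound in the IDR list, below the share of all genes. In the replicates the shares were 2.39%, 0.957% and 0.957%, so that tRNA genes exceeded pseudogenes by 37.2 ± 2.93 points (SD, n = 3; higher in 3 of 3 replicates, exact sign-flip permutation p = 0.25, 0.386 adjusted). The 3 bound pseudogenes, named here after their values were seen, were WBGene00023344 on I with a score of 294, WBGene00014724 on IV with a score of 232 and WBGene00014782 on V with a score of 77.2. The first of them scored above every region at a tRNA gene away from X. In the authors' relaxed lists, which reach into background and hold 30000 regions each, tRNA pseudogenes were bound in 20.6%, 20.6%, 19.6% and 21.5% of cases (pooled and replicates 1 to 3). All nuclear genes were bound there in 20.2%, 20.5%, 20.5% and 22% of cases. tRNA genes reached 52.1%, 55.2%, 56.2% and 67.0% in those lists. Of the 371 tRNA genes not bound in the IDR list, 78 had a point source in the pooled relaxed list, or 21.0%. In the relaxed lists of replicates 1, 2 and 3 there were 110, 111 and 178 of them, or 29.6%, 29.9% and 48.0%, each above the share of all nuclear genes in that list.

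The point sources lay on or close to the tRNA genes. The median position in the IDR list was 17 bp downstream of the gene start, with an interquartile range from -17 to 49 bp. Replicate medians were 11, 13 and 2 bp, a mean of 8.67 ± 5.86 bp (SD, n = 3). Of the 217 point sources, 131 (60.4%) lay inside the gene, 75 (34.6%) upstream and 11 (5.07%) past its end. In the replicates 49.5% ± 7.08 lay inside and 43.0% ± 5.19 upstream (SD, n = 3). In replicate 3 more lay upstream (48.5%) than inside (42.4%). Although the window reaches 500 bp upstream, 211 of the 217 (97.2%) lay within 100 bp of the start on either side. Downstream the rule itself stops at 100 bp, so only upstream point sources could lie farther away. The median and the share past the gene end are bounded by the same limit. With a window from 1000 bp upstream to 200 bp downstream the median was 16.5 bp. Over the 151 regions that recurred among the top regions of every replicate, the SD of a region's point source between replicates had a median of 28 bp.

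**Figure D1:**
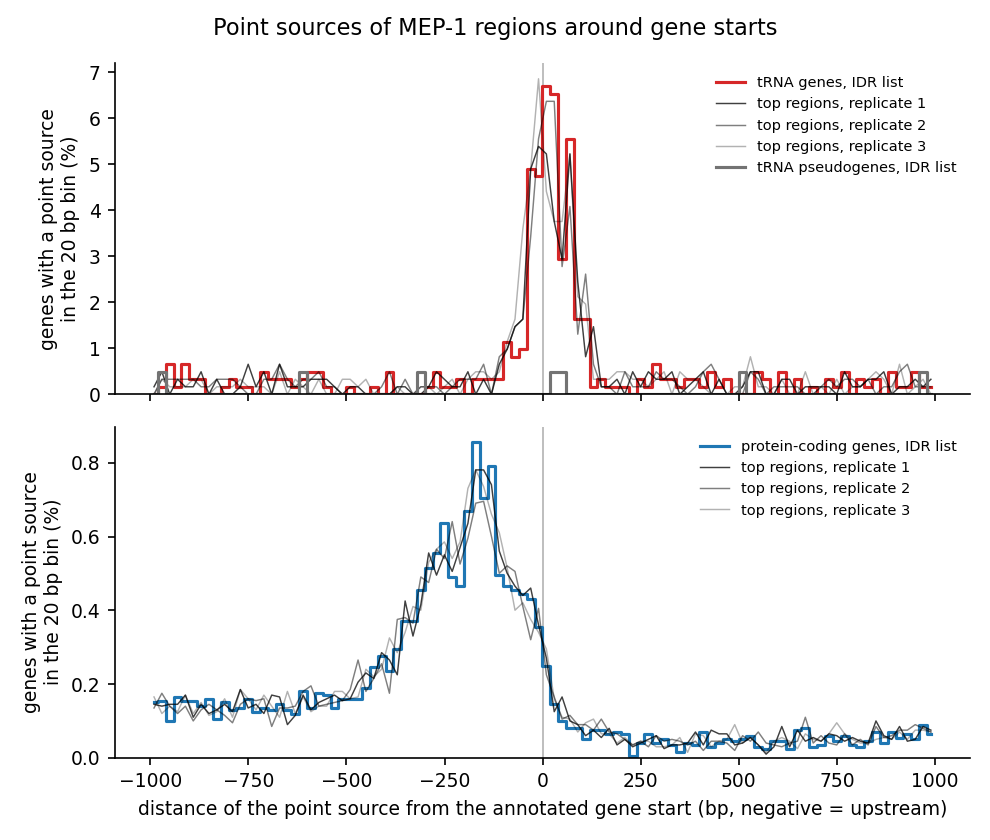
Percentage of genes with a point source in each 20 bp bin (y axis) against distance from the annotated gene start in bp (x axis), for tRNA genes and tRNA pseudogenes (upper panel) and protein-coding genes (lower panel, another y scale). Coloured or thick grey steps are the IDR list and thin lines the top regions of each replicate; tRNA genes peak at the start, with 41 of 612 genes (6.70%) in the bin from 0 to 19 bp, and protein-coding genes peak upstream.

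Within the gene the distribution had more than one high point. The bin from 0 to 19 bp held point sources of 41 genes, that from 20 to 39 bp of 40, that from 40 to 59 bp of 18, and that from 60 to 79 bp, around the end of a typical tRNA gene, of 34. In replicate 1 the last 3 of these bins held 23, 18 and 32 genes. Replicate 2 held 39, 17 and 25, and replicate 3 held 23, 23 and 32. The bin from 60 to 79 bp stood above the bin from 40 to 59 bp in 4 of 4 lists, the IDR list not being independent of the replicates. Bound genes had a median length of 72 bp and unbound ones of 73 bp.

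Other kinds of regions lay elsewhere relative to the gene. Regions at small nucleolar RNA genes had their median point source at -38 bp (-47.2 ± 1.61 bp over replicates, SD, n = 3; 97 regions). Regions at microRNA genes lay at -243 bp (-246 ± 10.5 bp; 41 regions). Those at protein-coding gene starts lay at -170.5 bp (-171 ± 3.21 bp; 1888 regions). In all 3 replicates the tRNA median was the one closest to the annotated start and the only one downstream of it. The annotated start of a microRNA gene is that of its precursor, so its distance does not measure the same thing.

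Few regions were at stake at the upstream edge of the window, and more at the downstream edge. Just inside the upstream edge were F58D5.t1 at -481 bp with a score of 81.7 and C06G4.t1 at -382 bp with 101, and just outside it F23A7.t1 at -549 bp with 82.4 and F22F1.t7 at -594 bp with 164. Just inside the downstream edge were T09B4.t1 at 99 bp with 142 and T04D3.t2 at 96 bp with 167. The nearest beyond that edge were Y54G2A.t3 at 102 bp with 177 and M01E10.t1 at 103 bp with 77.4. Altogether 12 regions lay 101 to 200 bp downstream of a tRNA gene start and 2 lay 501 to 600 bp upstream. Only 11 of the regions kept by the rule were past the gene end, so that count depends on where the window stops. In the IDR list the bins from 80 to 99 bp and from 100 to 119 bp each held point sources of 10 genes.

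The score is the authors' value per region, on a scale that is not stated, and is used to rank regions within 1 list. Regions at tRNA genes were of middling to high score. They ranged from 62.4 to 458 with a median of 124 and quartiles at 90.4 and 169, while the other nuclear regions had a median of 106, quartiles at 78.2 and 165 and a highest value of 2188. The log2 difference of medians was 0.23 in the IDR list and 0.15, 0.22 and 0.17 in the replicates, a mean of 0.18 ± 0.04 (SD, n = 3; higher in 3 of 3, exact sign-flip permutation p = 0.25, 0.386 adjusted). With a replicate left out it fell to between 0.04 and 0.08, and among regions recurring in every replicate's top regions it was -0.02. No region at a tRNA gene ranked among the 100 highest of the IDR list, 14 ranked among the 500 highest and 38 among the 1000 highest. Regions at small nucleolar RNA genes had a median score of 209, and those at protein-coding gene starts one of 122.

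The strongest regions were at tRNA genes of the X chromosome, and mostly had their point source just before the gene. All 12 of the highest-scoring ones were on X and in the top regions of all 3 replicates, and 10 of the 12 had the point source upstream. The first lay at C28G1.t1, a tRNA-Glu gene (region X:8835799-8836269). Its score was 458 in the IDR list and 178, 205 and 90.3 in replicates 1, 2 and 3, where it ranked 149, 123 and 133. Its point source was 88 bp upstream of the tRNA gene and 9 bp downstream of the start of the protein-coding gene C28G1.2, so the region belongs to both windows.

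R04A9.t1, a tRNA-Gln gene antisense in an intron of ZK1193.2, followed with a score of 457 (region X:410004-410500). It had 192, 183 and 89.2 in the replicates, with point sources 181, 111 and 141 bp upstream and 139 bp upstream in the IDR list. No protein-coding gene start had that point source in its window. M02F4.t1, an intergenic tRNA-Gly gene, scored 423 (region X:3035895-3036341) and 183, 177 and 67.8 in the replicates. Its point source fell 24 bp upstream of the gene, and 35, 22 and 16 bp upstream in replicates 1, 2 and 3. That window took in a second tRNA gene, as did those of 24 regions in all; 2 is the largest number in any window, and the other 193 regions had 1.

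Next came C33G3.t2 (tRNA-Lys) with a score of 369, F41D9.t3 (tRNA-Asn, in an intron of sulp-3) with 363 and C04E7.t1 (tRNA-Leu) with 354. C04E7.t1 is the other one of the 12 whose region also lay in a protein-coding window, that of sor-3, 246 bp upstream of its start. C42D8.t1 (tRNA-Ile) had a score of 333 and its point source past the gene end, at 95 bp. In replicates 1 and 2 that gene had it at 95 and 104 bp, and in replicate 3 at -16 bp with a rank of 1565 against 268 and 199, so it is the region among the 12 on which the replicates differ most in rank. The remaining 5 were C53C7.t1 (tRNA-Ser, 332), F46G11.t1 (tRNA-Pro, 326), R11.t1 (tRNA-Tyr, 319), C04A11.t1 (tRNA-Leu, 306) and W02H3.t1 (tRNA-Leu, 297). C04A11.t1 has a gene sequence found once in the nuclear genome's tRNA genes, while the others of the 12 have at least 3 copies.

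In the IDR list, regions with the point source upstream of the gene had a median score of 145, those inside it 120 and those past it 122. By score, 50.9% of the highest 55 regions had the point source upstream, against 27.8%, 25.9% and 33.3% in the next groups of 54. The share on X was 69.1% in the highest group and 35.2%, 46.3% and 35.2% in the next ones. Position and chromosome are thus mixed in these groups, and the part of each was not tested. When the 24 regions that also lie in a protein-coding window were left out, the medians were 134 upstream, 123 inside and 122 past the gene. Examples, picked by no rule, lay in the windows of gcy-33, a guanylate cyclase gene, flp-23, a neuropeptide gene, and aqp-9, an aquaporin gene. Their point sources were at -376, -375 and -75 bp of those starts, and at -3, 60 and 65 bp of the tRNA gene starts. Such regions made up 11.1% of those at tRNA genes and 37.8% of other nuclear regions, with 36.7% over all nuclear regions. A further overlap is with genes of the annotated biotype ncRNA (non-coding RNA), in whose windows 109 of the 217 regions lay (50.2%), against 10.5% of the other nuclear regions and 12.2% of all nuclear regions.

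Most regions at tRNA genes recurred in every replicate. Of the 217, 187 (86.2%), 192 (88.5%) and 184 (84.8%) overlapped a top region of replicates 1, 2 and 3. In all 3 there were 151 (69.6%), against 60.4% of the other nuclear regions and 60.8% of all nuclear regions of the IDR list. Within the part of the IDR list at or above its median score the order was the other way, with a difference of -4.18 points. Recurrence is itself a cut on score in each replicate, so a link with the IDR score is partly built in. In all 3 replicates were 53 of the 55 highest-scoring regions and 8 of the 54 lowest-scoring ones.

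A few regions were missing from a replicate altogether. In replicate 1, 8 had no overlapping region even in the relaxed list, in replicate 2, 3 had none, and replicate 3 had one for each. The strongest of the 8 was W09D6.t2, a tRNA-Pro gene on III in an intron of rsa-2, with a score of 222 and ranks 637 and 682 in replicates 2 and 3. The other 7 were Y59E1B.t2 (score 172), T26C11.t1 (157), T15B12.t1 (131), F52C9.t1 (126), F21C3.t1 (112), F47E1.t1 (98.1) and Y43D4A.t1 (66.9). The 3 absent from replicate 2 were F19H6.t1 (134), C13B4.t1 (81.1) and F28F5.t1 (65.8). Another 3 were in the top regions of no replicate, and each was at a tRNA-Trp gene. They were Y95B8A.t1, the lowest-scoring region of the 217 (62.4; ranks 5745, 6836 and 9593 in the replicates), sup-21 (64.0) and sup-28 (64.0), the last pair known as genes in which mutations suppress amber stop codons.

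X held the largest share of the regions, as it does of the genes. Of the 612 tRNA genes 276 (45.1%) are on X, and 101 of the 217 regions (46.5%) were on X, against 19.5% of the other nuclear regions. In the top regions of replicates 1, 2 and 3, 49.5%, 47.8% and 48.9% of the regions at tRNA genes were on X. Measured per gene, 41.3% of the tRNA genes on X and 37.8% of those elsewhere were bound in the IDR list, a difference of 3.51 points. It was 8.93, 6.19 and 7.49 points in replicates 1, 2 and 3, a mean of 7.54 ± 1.37 (SD, n = 3; higher on X in 3 of 3, exact sign-flip permutation p = 0.25, 0.386 adjusted). This difference depended on which genes it was set against. Without V, where few tRNA genes were bound, 44.6% of the tRNA genes off X were bound in the IDR list, so the difference was -3.27 points there, and 3.68, 1.38 and 2.27 points in the replicates. Among clustered genes alone, defined further on, the share was lower on X than elsewhere in the IDR list (31.3% against 46.5%) and by -3.54, -7.31 and -2.26 points in the replicates. Among solitary genes alone it was higher on X by 16.2 points, and by 18.4, 14.8 and 16.5 points in the replicates.

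Scores on X were higher as well as more spread. The median score was 134 on X and 115 elsewhere, and 13 regions on X exceeded 273, the highest score away from X. Of the 50 highest-scoring regions at tRNA genes, 35 were on X. The log2 difference of medians was 0.23 in the IDR list and 0.38, 0.17 and 0.14 in the replicates, a mean of 0.23 ± 0.13 (SD, n = 3; higher on X in 3 of 3, exact sign-flip permutation p = 0.25, 0.386 adjusted). Among all other nuclear regions the log2 difference between X and elsewhere was 0.01, and -0.01, -0.03 and 0.03 in the replicates.

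**Figure D2:**
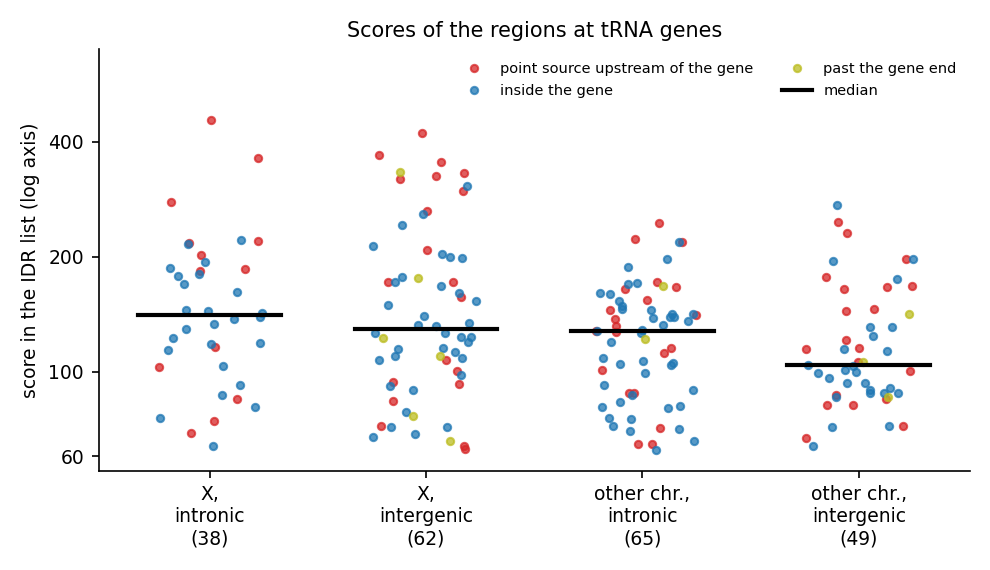
Score in the IDR list (y axis, log scale) of the regions at intronic and intergenic tRNA genes on X and on the other chromosomes (x axis, number of regions in brackets), 1 point a region coloured by where its point source lay, horizontal jitter only. Bars are medians of 141, 129, 127 and 104 from left to right, and the 3 regions at genes that overlap an exon or the edge of a protein-coding gene are not drawn.

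Among the other chromosomes V stood apart. Only 12 of its 78 tRNA genes were bound in the IDR list (15.4%), against 42.9% of the tRNA genes on the remaining chromosomes. The replicates had 12, 15 and 16 bound tRNA genes on V, or 15.4%, 19.2% and 20.5%. The difference was -27.5 points in the IDR list and -23.2 ± 1.60 points over the replicates (SD, n = 3; lower on V in 3 of 3, exact sign-flip permutation p = 0.25, 0.386 adjusted). Among genes whose sequence has several copies, 9 of 51 on V and 198 of 418 elsewhere were bound, or 17.6% and 47.4%. Among single-copy sequences the counts were 3 of 27 on V and 31 of 116 elsewhere. V was picked out after its value was seen.

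**Figure D3:**
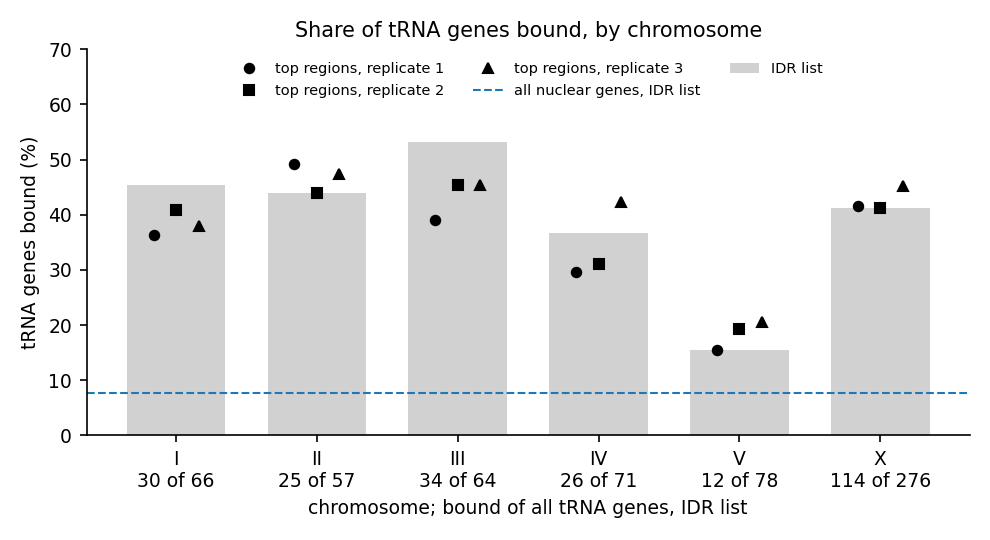
Percentage of tRNA genes bound (y axis) on each nuclear chromosome (x axis, with bound and total genes). Bars are the IDR list, symbols the top regions of replicates 1, 2 and 3, and the dashed line the 7.69% of all nuclear genes bound in the IDR list; V is the lowest in every list, from 15.4% to 20.5%.

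On the remaining chromosomes the IDR list had 30 of 66 tRNA genes bound on I (45.5%), 25 of 57 on II (43.9%), 34 of 64 on III (53.1%) and 26 of 71 on IV (36.6%). The replicates did not keep that order. In replicate 1 the share was higher on II (49.1%) than on III (39.1%), and IV ranged from 29.6% in replicate 1 to 42.3% in replicate 3. Away from X the highest score belonged to B0350.t1, an intergenic tRNA-Lys gene on IV, with 273 in the IDR list and 113, 121 and 35.8 in the replicates (region IV:5967075-5967281). Its point source was at 11 bp in the IDR list and at 75, -3 and 67 bp in the replicates, so its position along the gene varied among replicates.

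Intronic and intergenic tRNA genes were bound in nearly equal shares. Of 283 intronic tRNA genes 39.6% were bound and of 319 intergenic ones 39.5%, a difference of 0.08 points. In the replicates it was -1.58, -1.77 and 0.59 points, a mean of -0.92 ± 1.31 (SD, n = 3), which is within the spread between replicates (exact sign-flip permutation p = 0.5, 0.567 adjusted). On X the 2 kinds had 42.1% and 40.6% bound, and elsewhere 38.3% and 38.1%. The remaining 10 tRNA genes overlap an exon or the edge of a protein-coding gene, and 3 of them were bound (C28G1.t1, W02G9.t2 and Y69A2AR.t2).

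Orientation inside the host gene gave a small difference that had the same sign in the IDR list and in every replicate. Of 160 intronic tRNA genes read in the same direction as the host, 38.1% were bound, and of 122 read in the opposite direction 41.8%. The difference was -3.68 points in the IDR list and -6.22, -6.61 and -6.33 points in the replicates, a mean of -6.39 ± 0.20 (SD, n = 3; lower in the same direction in 3 of 3, exact sign-flip permutation p = 0.25, 0.386 adjusted). The replicates score the same genes, so this SD does not measure the spread between genes. Under 9 alternatives to the IDR value the difference ran from -6.11 to -1.96 points. The tRNA-Cys gene C37A2.t1 on I is read in the same direction as its host cye-1, the cyclin E gene. It had the highest-scoring intronic region away from X (region I:6781647-6781907). Its score was 245, and 89.5, 121 and 36.7 in the replicates. R04A9.t1, the highest on X, is read against its host.

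Among regions away from X, intronic ones had a median score of 127 and intergenic ones of 104. On X the medians were 141 and 129. Their median positions were alike, at 15 and 19.5 bp on X and 14 and 17 bp elsewhere, intronic before intergenic.

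In the IDR list clustered tRNA genes were bound less often than solitary ones on X and more often elsewhere; the latter did not hold in replicate 3. A tRNA gene was called clustered when another tRNA gene started within 1000 bp of it, and solitary otherwise. Of 230 clustered genes 37.8% were bound and of 382 solitary ones 40.3%, a difference of -2.49 points that was -3.87, 0.56 and -8.15 points in the replicates, within their spread (mean -3.82 ± 4.36, SD, n = 3; exact sign-flip permutation p = 0.5, 0.567 adjusted). On X, 31.3% of clustered and 50.3% of solitary genes were bound. The difference there was -19.05 points in the IDR list and -16.8, -11.8 and -19.4 points in the replicates, a mean of -16.0 ± 3.86 (SD, n = 3; lower for clustered genes in 3 of 3, exact sign-flip permutation p = 0.25, 0.386 adjusted). On the other chromosomes 46.5% of clustered and 34.2% of solitary genes were bound, a difference of 12.3 points in the IDR list but of 5.14, 10.4 and -0.60 points in the replicates (mean 4.97 ± 5.48, SD, n = 3; exact sign-flip permutation p = 0.5, 0.567 adjusted). It was 4.48, 2.54 and 8.18 points with replicates 1, 2 and 3 left out in turn, and 1.97 points in the upper part of the list by score. A point source counted for every tRNA gene whose window held it, so clustered genes could share one and solitary genes could not. Over all chromosomes, pairs had 58 bound genes through 42 point sources, clusters of 3 had 13 through 9, and larger ones 16 through 12. The part of such sharing in these differences was not tested.

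The genes formed 98 clusters, of which 77 were pairs, 14 had 3 genes and 7 had 4 or more. The largest clusters, all on X, differed in how many of their genes were bound. F22F1.t2 to F22F1.t7 (X:8154445-8156707) has 6 genes with 5 distinct sequences, for Asp, Ile, Met and Ser, and 4 were bound in the IDR list through 3 point sources. In replicates 1, 2 and 3 there were 2, 4 and 4 bound. The F28H6 cluster (X:14135045-14137010) has 6 tRNA-His genes with 1 sequence between them, and 1 was bound. K01A12 (X:8623603-8624532), with 5 genes for Arg and Cys, had none bound in the IDR list and 3, 0 and 3 in the replicates. H08J11 (X:9090627-9091628), with 5 tRNA-Gln genes, had 4 bound through 2 point sources.

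**Figure D4:**
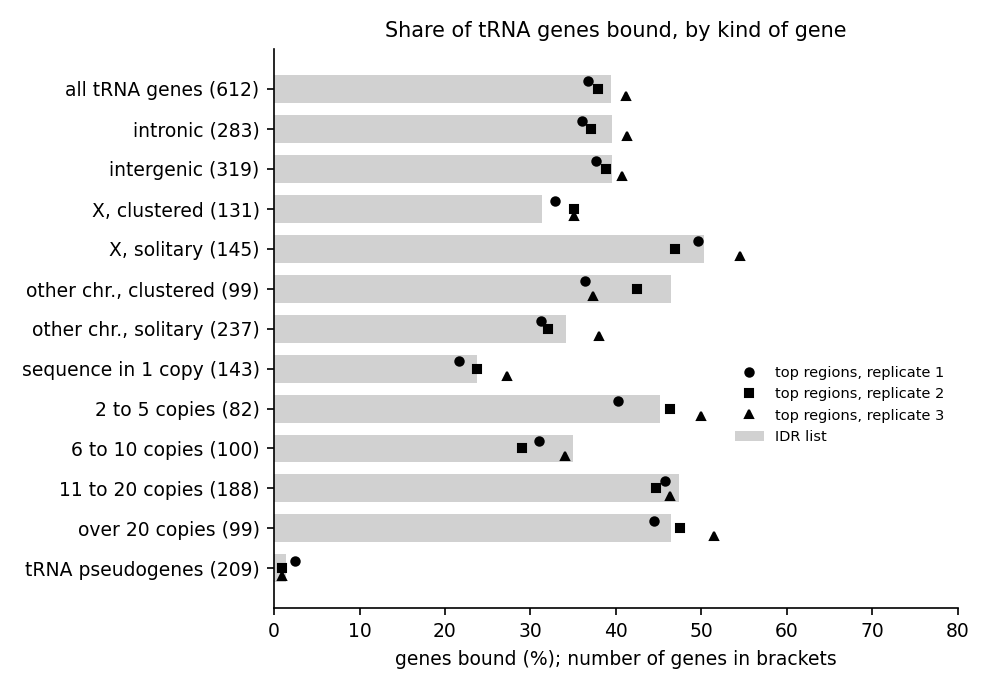
Percentage of genes bound (x axis) for kinds of tRNA genes and for tRNA pseudogenes (y axis, number of genes in brackets). Bars are the IDR list and symbols the top regions of replicates 1, 2 and 3; intronic and intergenic genes lie side by side near 39.5%, single-copy sequences lie at 23.8% and pseudogenes at 1.44%.

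Many tRNA genes share their whole sequence with others, and those that do were bound more often. The 612 genes have 200 distinct sequences, of which 57 occur more than once. Of the 143 genes with a sequence of their own 23.8% were bound, and of the 469 genes with copies 44.1%. The difference was 20.4 points in the IDR list and 19.7, 18.4 and 18.1 points in the replicates, a mean of 18.8 ± 0.82 (SD, n = 3; higher for copied sequences in 3 of 3, exact sign-flip permutation p = 0.25, 0.386 adjusted). It was 25.5 points on X and 16.4 points elsewhere. The share did not climb steadily with copy number, with 45.1% at 2 to 5 copies, 35.0% at 6 to 10, 47.3% at 11 to 20 and 46.5% above 20.

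Copies of one sequence were often bound at some places and not at others. Of the 57 repeated sequences, 6 had every copy bound, 11 had none, and 40 had some bound and some not. Those 40 comprised 423 genes, 192 of them bound. The most repeated sequence, that of M02F4.t1, has 29 copies with 18 bound, and the pair C28G1.t1 and F31B12.t1 printed above is another case. In that pair the point source of the IDR list lay outside the repeated gene, 9 bp downstream of the start of C28G1.2. In replicates 1, 2 and 3 it lay at -87, -31 and -101 bp of the tRNA gene start. Whether the region belongs to the tRNA gene or to C28G1.2 cannot be told apart here. Reads from inside a repeated gene cannot be assigned to 1 copy, and how the authors' processing handled them is not given in the sources used here. Values at repeated genes are therefore uncertain, also in their exact position, and the part of read assignment in these differences was not tested.

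Nearly all tRNA genes, bound or not, carried the promoter elements, and the few without an A box were rarely bound. An A box was found in 240 of 241 bound and 356 of 371 unbound tRNA genes, and in 199 of 209 pseudogenes. The B box core, GTTCGANNC or GTTCAANNC on the gene strand, was in 233 bound genes, 354 unbound genes and 165 pseudogenes (96.7%, 95.4% and 78.9%). Counted over the first 72 bases of all other nuclear genes the B box core was in 0.84% on the gene strand and 2.23% on either strand, and the A box in 6.10% and 13.0%. Of the 16 tRNA genes with no A box match 6.25% were bound in the IDR list and in each replicate, against 40.3% of those with one in the IDR list. For the B box core the shares were 32.0% of 25 genes without it and 39.7% with it. At least 4 T in a row followed within 30 bp of the gene end in 240 bound genes, 365 unbound genes and 192 pseudogenes. Of the 7 tRNA genes with no such run, 1 was bound, W09G10.t3 on II (14.3%, against 39.7% with a run). An A box was in 129 of 143 single-copy genes (90.2%) and in 467 of 469 genes with copies (99.6%). Most genes without one were thus single-copy, a class of which 23.8% were bound in the IDR list. The part of copy number in the A box difference was not tested. The 1 bound gene with no A box match was K11H12.t1, the selenocysteine tRNA gene, with a score of 137 and its point source 84 bp upstream.

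Base composition differed more before the gene than in it. The 100 bp upstream had a median GC content of 44% in bound and 40% in unbound genes, while the gene bodies had 58.3% in both. In 100 bp at the point source the median was 50% for regions at tRNA genes and 44% for the other nuclear regions. The rule places most of the former on or beside a tRNA gene body, so that difference is partly set by the selection.

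By amino acid the share bound ran from 25.6% for Ser (10 of 39 genes) to 55.6% for Gln (15 of 27), leaving out the single selenocysteine gene, which was bound, and 5 genes with no assigned amino acid, none of which was. Gly had 28 of 55, Thr 17 of 34 and Phe 7 of 14. The order was not stable. Gln had 10, 12 and 11 bound genes in replicates 1, 2 and 3, so that it fell below Gly, with 24, 29 and 29 of 55, in each of them. Trp had 4 of 12 bound in the IDR list but 1, 1 and 2 in the replicates, and Tyr had 5 of 19 in all 4 lists.

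Of the proteins that make and process tRNAs, few had a region at their own gene. A list of RNA polymerase III subunits, its factors and tRNA maturation genes had 28 of 30 symbols in the annotation, and 5 of these were bound in the IDR list (17.9%), where 11.6% of protein-coding genes were. The replicates had 5, 6 and 4. Within it 3 of 17 polymerase III genes were bound. They were rpac-19, a subunit shared with RNA polymerase I (score 166, point source 150 bp upstream), rpb-8, a subunit shared by all 3 nuclear polymerases (86.8), and tftc-1, a TFIIIC subunit (129). Of 11 maturation genes 2 were bound, xpo-3, the tRNA exportin (109), and pus-1, a pseudouridine synthase (141). With so few genes the share cannot be set apart from that of protein-coding genes.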

How the data were processed

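GFP-tagged MEP-1 was mapped by ChIP-seq in 3 replicates of whole L4 larvae. The authors deposited, per the labels, a relaxed region list for each replicate and for pooled reads, besides an optimal IDR list. Each deposited list gives per region a score, on a scale not stated, with a −log10 q-value. The deposited −log10 q-values were almost constant in the IDR list, so regions were ranked by score. No aligner, caller or read depth is given in the sources used here. Coordinates are ce11 and 1-based. Genes came from Ensembl release 115 (WBcel235), and tRNA names and amino acids from RefSeq, matched by WormBase ID for 612 of 612 genes. The 20 mitochondrial regions were left out. A region with several tRNA genes in its window took the nearest. Intronic means wholly within a protein-coding gene and off its exons. Differences were tested over the 3 replicates by exact sign-flip permutation with Benjamini-Hochberg adjustment over 17. Replicates may differ in handling as well as in animals. Alternatives covered windows, lists, replicates left out, overlap and clustering distance. Scripts used Python 3.11.15, pandas 2.3.3 and numpy 2.4.6, and were tested on simulated data. Regions were named by a rule on score, place, cluster and window edge, or as examples. The members, lists and rules were chosen with earlier results of these data known.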

Additional observations from a re-analysis of the deposited data

How the results depend on the processing

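Between 9 and 12 alternatives were computed for the share of tRNA genes bound against other genes (16.5 to 34.5 points) and for V (-27.8 to -19.6), 9 each for copied sequences (14.2 to 23.0) and pseudogenes (23.9 to 42.2). These kept their direction, as did the median position, from 13 to 17 bp. X minus other chromosomes kept its direction under 11 alternatives (2.43 to 16.2 points) and turned to -3.27 points without chromosome V and -15.2 among clustered genes alone. Leaving out a replicate gave 23.4 to 25.6 points for tRNA genes and 160 to 170 regions. The difference between intronic and intergenic genes changed sign under 6 of 11 alternatives: -1.95 points in the window of 1000 bp upstream to 200 bp downstream, -2.25 to 1.39 with a replicate left out, -0.0244 among regions recurring in all 3 replicates, -1.76 with overlap of the region, and -1.37 for genes in the host's direction alone. Clustered minus solitary became 5.16 points in the wider window and 4.20 with overlap of the region. The log2 score difference became -0.12 in the upper part of the list by score and -0.0238 among regions recurring in all 3 replicates. In that upper part, recurrence in all 3 replicates was -4.18 points for tRNA regions and 137 of them remained. The cause was not tested. Alternatives chosen after seeing the data were those on single-copy sequences, X without V and among clustered genes, the number of regions, V, copies, pseudogenes, orientation, clustering on X and elsewhere, and scores on X. The IDR list was not made anew with a replicate left out, and those sets are smaller. All 12 highest-scoring regions were present under each of the 9 alternatives to the list, window or overlap. Apart from the pooled list, none of these could have removed them, given their scores, positions and recurrence in all 3 replicates. Depth is unknown, so a gene with no region may be bound below detection.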
